A study of Arabidopsis thaliana with 6 samples.

Results

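The early flavonoid and flavonol genes of Arabidopsis thaliana, the thale cress, are described here as 9 loci of 32833 listed in the deposited tables. They were chosen by locus identifier for their place in the pathway: the enzyme genes *CHS*, *CHI*, *CHIL*, *F3H*, *F3'H* and *FLS1*, and the regulator genes *MYB11*, *MYB12* and *MYB111*. All 9 are in the FPKM table (fragments scaled to gene length and library size), 8 are in the count table, and these 8 passed the filter on low counts and were tested. The study compared RNA of whole seedlings 9 days old, grown without further treatment on 1/2 MS medium with 1% sucrose. The 3 nup50c mutant libraries were set against 3 libraries of the wild-type accession Col-0. The labels do not give the nup50c lesion, how the line was made or whether libraries came from separately grown seedlings, so the p-values measure the spread between these libraries, which may be technical. The number in each mutant title was read as a replicate, although it could also name an allele.

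Flavonoids are plant phenolics made from coumaroyl-CoA, the product of the general phenylpropanoid pathway, and malonyl-CoA. Chalcone synthase (CHS) makes the first committed product, chalcone isomerase (CHI) closes its ring, and flavanone 3-hydroxylase (F3H) turns the product into a dihydroflavonol. Flavonol synthase (FLS1) then makes flavonols, the ultraviolet screens and transport modulators of seedlings, while dihydroflavonol reductase (DFR) draws the same dihydroflavonols towards anthocyanins. In Arabidopsis the R2R3-MYB proteins MYB11, MYB12 and MYB111 activate the early genes without a bHLH partner, and the light-responsive factor HY5 acts on several of the same promoters.

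The promoters of 4 enzyme genes are shown because they bracket the results that follow: *CHS* and *FLS1*, whose groups overlapped, and *CHIL* and *CHI*, which had the smallest p-values among the 8 tested genes. Each line is the 250 bases just upstream of the RefSeq gene start in the TAIR10.1 assembly, 5′ to 3′ on the gene's own strand. They span chr5:4488226-4488475 (plus) for *CHS*, chr5:2803583-2803832 (plus) for *FLS1*, chr5:1563036-1563285 (plus) for *CHIL* and chr3:20431598-20431847 (minus) for *CHI*. Capitals mark any match on either strand to ACGT, the core bound by bZIP factors such as HY5, to the G-box CACGTG, which contains that core, or to ACCNANC, the pattern of the AC elements bound by R2R3-MYB factors.
CHS: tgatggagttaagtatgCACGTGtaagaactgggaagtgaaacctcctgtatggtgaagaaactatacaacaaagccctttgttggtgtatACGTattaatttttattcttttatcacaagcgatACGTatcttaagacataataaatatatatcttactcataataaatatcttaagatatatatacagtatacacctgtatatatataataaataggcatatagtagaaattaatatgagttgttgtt
FLS1: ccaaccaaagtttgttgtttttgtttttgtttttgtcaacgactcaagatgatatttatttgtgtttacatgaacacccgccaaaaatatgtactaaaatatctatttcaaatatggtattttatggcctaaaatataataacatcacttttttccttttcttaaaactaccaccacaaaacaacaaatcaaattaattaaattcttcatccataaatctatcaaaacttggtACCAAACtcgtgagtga
CHIL: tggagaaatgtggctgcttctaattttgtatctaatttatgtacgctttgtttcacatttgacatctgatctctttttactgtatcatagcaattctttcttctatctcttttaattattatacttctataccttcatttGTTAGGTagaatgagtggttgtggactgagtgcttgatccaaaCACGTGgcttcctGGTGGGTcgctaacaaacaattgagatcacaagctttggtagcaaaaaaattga
CHI: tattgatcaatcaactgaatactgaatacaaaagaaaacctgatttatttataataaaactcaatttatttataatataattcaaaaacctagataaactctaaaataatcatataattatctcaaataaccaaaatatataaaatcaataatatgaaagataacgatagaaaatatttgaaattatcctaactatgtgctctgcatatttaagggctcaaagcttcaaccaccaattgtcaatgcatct
The *CHS* window held 3 ACGT cores, the most distal inside a G-box that begins at -233, counted from -1 just before the gene start, and no AC element. The *FLS1* window held 1 AC element, at -17, and no ACGT core. *CHIL* had 1 G-box, at -67, flanked by AC elements at -110 and -54, and *CHI* matched none of the patterns. Among 27443 windows of the same length before protein-coding genes, 44.1% held an ACGT core, 6.49% a G-box and 27.8% an AC element. A match is a description of the letters, not evidence of binding.

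The mutated gene was lower in every nup50c library. *NUP50C* (AT4G11790), which encodes a nuclear pore protein, had 469, 376 and 336 counts in nup50c and 1255, 1100 and 1142 counts in Col-0 (log2 fold change -1.49, SE 0.15, edgeR adjusted p = 0.00293). Its antisense neighbour AT4G11800 shares part of the locus, and the sources used here do not say if counts were stranded. Libraries held between 33273007 and 39574236 counts. The library nup50c replicate 3 stood apart on the second principal component, at -83.6 against -4.9 to 31.5 for the other libraries, so the fold change of each of the 8 tested genes is also given without it. Leaf markers were present, with *RBCS1A* at 11346 ± 429.6 CPM in nup50c and 11622 ± 246.3 CPM in Col-0 (CPM, counts scaled to TMM-normalized library size; SD, n = 3 each).

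Transcript levels per length spanned a wide range along the pathway and followed the same order in both groups apart from one adjacent pair. In deposited FPKM, *CHS* averaged 155.2 ± 27.6 in nup50c and 170.2 ± 16.9 in Col-0 (SD, n = 3 each). *FLS1* came next at 50.5 ± 8.06 FPKM in nup50c and 54.4 ± 5.59 FPKM in Col-0. *F3H* averaged 38.1 ± 9.09 FPKM in nup50c and 40.8 ± 7.51 FPKM in Col-0. *CHIL*, with 33.3 ± 3.30 FPKM in nup50c and 41.6 ± 3.08 FPKM in Col-0, exchanged places with *F3H* between the groups. The ranges of these neighbours overlapped. Over the 6 libraries *F3H* ran from 31.0 to 49.4 FPKM and *CHIL* from 29.6 to 43.8 FPKM. The lowest *FLS1* value, 43.2 FPKM, lay below the highest of *F3H*. Within each library, however, *FLS1* stood above *F3H*, at ratios from 1.22 to 1.59. *F3H* and *CHIL* changed places between libraries. *F3H* was the higher in nup50c replicate 1 (48.4 against 36.0 FPKM) and the lower in nup50c replicate 2 (31.0 against 34.2 FPKM). *CHI* averaged 21.2 ± 3.52 FPKM in nup50c and 27.4 ± 2.14 FPKM in Col-0, and its highest library, 29.0 FPKM, lay below the lowest of *CHIL*. *F3'H* averaged 7.27 ± 0.885 FPKM in nup50c and 8.11 ± 1.08 FPKM in Col-0.

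The regulators were the scarcest transcripts. *MYB12* averaged 2.56 ± 0.369 FPKM in nup50c and 2.75 ± 1.04 FPKM in Col-0, *MYB111* 1.17 ± 0.665 FPKM in nup50c and 1.76 ± 0.637 FPKM in Col-0. The ranges of both genes over all libraries overlapped, but within each library *MYB12* was the higher, most narrowly in Col-0 replicate 3 (1.87 against 1.66 FPKM). *MYB11* (AT3G62610) was listed at 0 FPKM in all 6 libraries and was not in the count table used here, so no comparison was made for it. A value of 0 in a table of this kind can be a failed estimate.

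Whether the early pathway differs between mutant and wild type was asked with edgeR's quasi-likelihood test over 21158 genes, with Benjamini-Hochberg adjustment and a threshold of 0.05. None of the 8 tested genes passed, 0 higher and 0 lower, against 2.28% of all genes tested (1.12% higher and 1.17% lower). At an unadjusted p under 0.05 there were 2, *CHIL* and *CHI*, both lower in nup50c, where 16.6% of all genes passed and 7.98% did so as lower. DESeq2 called 1 of the 8, *CHIL*, as lower, against 6.04% of all genes (3.12% higher and 2.92% lower). Tested with limma on log2(FPKM + 1), 0 of the 8 passed, against 2.28% of the genes in that fit (1.11% higher and 1.17% lower). Without nup50c replicate 3, 0 passed edgeR, against 2.05% of all genes. In CPM, 2 of the 8, again *CHIL* and *CHI*, had groups that did not overlap, against 23.4% of all genes. All 8 fitted log2 fold changes were below 0, from -0.60 to -0.11 with a median of -0.16, while over all genes tested 50.5% were below 0 and the median was -0.0028. The median of the 8 was -0.29 without nup50c replicate 1, -0.25 without Col-0 replicate 2 and -0.13 without nup50c replicate 2. Of the 8, 6 stayed below 0 without nup50c replicate 2, and 7 without Col-0 replicate 2 or without Col-0 replicate 3. The genes share the same 6 libraries, so their common direction is not 8 separate observations.

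**Figure D1:**
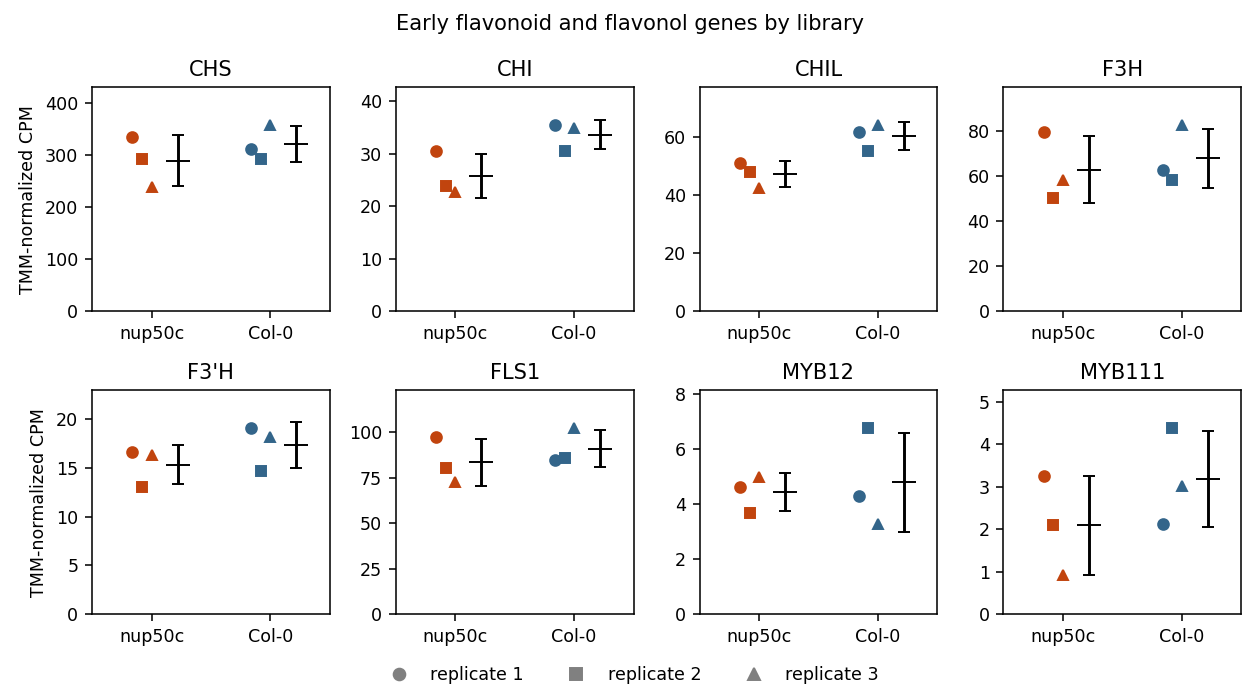
TMM-normalized CPM of the 8 tested genes in each library (y axes start at 0). Coloured symbols are single libraries, shaped by replicate number, and the black bars give the mean and SD of 3 libraries per group. *CHIL* and *CHI* are the genes whose groups do not overlap, *CHI* by the narrowest margin (30.46 CPM in nup50c replicate 1, 30.47 CPM in Col-0 replicate 2).

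*CHS* (AT5G13930, chromosome 5 from 4488476 to 4490264, plus strand, 2 exons), the entry enzyme, had 334.5, 292.6 and 237.4 CPM in nup50c and 311.8, 291.1 and 357.8 CPM in Col-0. The groups overlapped: nup50c replicate 1 was the second highest of all libraries and nup50c replicate 3 the lowest. The log2 fold change was -0.15 (SE 0.13, 95% interval -0.47 to 0.16, edgeR adjusted p = 0.65), and it was -0.03 without nup50c replicate 3. AT5G13940 overlaps the gene on the other strand and was listed at 0 counts throughout.

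*CHI* (AT3G55120, chromosome 3 from 20430059 to 20431597, minus strand, 4 exons), which closes the flavanone ring, had 30.5, 23.9 and 22.8 CPM in nup50c and 35.6, 30.5 and 34.9 CPM in Col-0. The groups touched without overlapping in CPM and did overlap in FPKM, where nup50c replicate 1 (25.2) stood above Col-0 replicate 2 (25.0). The fitted ratio was 0.764 (log2 fold change -0.39, SE 0.13, 95% interval -0.67 to -0.10, edgeR adjusted p = 0.166, unadjusted p = 0.0135). Without nup50c replicate 3 it was -0.31 on the log2 scale (edgeR adjusted p = 0.272).

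*CHIL* (AT5G05270, chromosome 5 from 1563286 to 1565324, plus strand, 5 exons) encodes a non-catalytic relative of CHI that enhances flavonoid production. It had 51.0, 48.1 and 42.3 CPM in nup50c and 61.7, 55.2 and 64.3 CPM in Col-0, so every nup50c library lay below every Col-0 library, in FPKM as well. Groups that did not overlap, lower in nup50c, were found for 11.6% of all genes tested in CPM and for 9.55% of genes in FPKM. The log2 fold change was -0.36 (SE 0.09, 95% interval -0.57 to -0.15, edgeR adjusted p = 0.0932, unadjusted p = 0.00408). *CHIL* passed with DESeq2 (adjusted p = 0.0259) and with edgeR over the genes that had at least 10 counts in every library (adjusted p = 0.0437), a fit that called 3.9% of genes, 1.99% higher and 1.91% lower. It did not pass in the edgeR fits that left out any single library (adjusted p from 0.105 to 0.290; log2 fold change -0.28 and adjusted p 0.159 without nup50c replicate 3).

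*F3H* (AT3G51240, chromosome 3 from 19025192 to 19026872, plus strand, 3 exons) makes the dihydroflavonol at which the flavonol and anthocyanin branches part. It had 79.4, 50.5 and 58.5 CPM in nup50c and 62.7, 58.3 and 82.9 CPM in Col-0. The groups overlapped, with nup50c replicate 1 and Col-0 replicate 3 standing above the other libraries. The log2 fold change was -0.11 (SE 0.21, 95% interval -0.62 to 0.39, edgeR adjusted p = 0.86), and -0.07 without nup50c replicate 3. An antisense gene, AT3G51238, overlaps *F3H* and had 1589, 2397 and 1634 counts in nup50c and 2244, 2246 and 2849 counts in Col-0, against 2735, 1897 and 1906 *F3H* counts in nup50c and 2205, 2113 and 3266 in Col-0. Without knowledge of the strand setting, reads of the pair cannot be told apart, and the *F3H* values are uncertain to that extent.

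*F3'H* (AT5G07990, chromosome 5 from 2560328 to 2563137, plus strand, 4 exons) is the cytochrome P450 that hydroxylates the B ring and so sets quercetin against kaempferol. It had 16.6, 13.0 and 16.3 CPM in nup50c and 19.1, 14.6 and 18.1 CPM in Col-0, with replicate 2 the lowest of each group and the groups overlapping. The log2 fold change was -0.17 (SE 0.15, 95% interval -0.51 to 0.16, edgeR adjusted p = 0.63), and -0.22 without nup50c replicate 3. *FLS1* (AT5G08640, chromosome 5 from 2803833 to 2805606, plus strand, 3 exons), the main flavonol synthase, had 97.5, 80.4 and 72.6 CPM in nup50c and 84.6, 86.1 and 102.5 CPM in Col-0. As for *CHS*, nup50c replicate 1 was second only to Col-0 replicate 3, and nup50c replicate 3 was lowest. Its log2 fold change was -0.12 (SE 0.12, 95% interval -0.40 to 0.15, edgeR adjusted p = 0.68) and -0.03 without nup50c replicate 3.

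*MYB12* (AT2G47460, chromosome 2 from 19476326 to 19479597, plus strand), known as the flavonol regulator acting mainly in roots, had 160, 138 and 163 counts in nup50c and 152, 246 and 130 counts in Col-0. The Col-0 libraries held both the highest and the lowest count. The log2 fold change was -0.11 (SE 0.29, 95% interval -0.76 to 0.54, edgeR adjusted p = 0.90), and it was -0.21 without nup50c replicate 3 and 0.22 without Col-0 replicate 2. *MYB111* (AT5G49330, chromosome 5 from 19998823 to 20001572, minus strand), which acts mainly in cotyledons, had 112, 79 and 30 counts in nup50c and 75, 159 and 119 counts in Col-0. Nup50c replicate 3 held the fewest and Col-0 replicate 2 the most. With a log2 fold change of -0.60 (SE 0.46, 95% interval -1.65 to 0.45, edgeR adjusted p = 0.59), *MYB111* had the widest interval of the 8 genes. It was -0.25 without nup50c replicate 3.

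Several of the genes shared an order of libraries that crossed the groups. Col-0 replicate 3 was among the 2 highest libraries for 6 of the 8 genes and nup50c replicate 1 for 4, while nup50c replicate 3 was the lowest for 5. Parts of this order were also seen in related lists. Of 9 general phenylpropanoid genes, the same 3 counts were 7, 0 and 6, so nup50c replicate 1 was not among the 2 highest there. Of 9 tested genes that decorate flavonols, they were 7, 3 and 4. Of the 8 late anthocyanin enzyme genes described below, they were 6, 0 and 2. These counts were not taken over all genes. For the 8 early genes, the median deviation from each gene's own mean was 0.10, -0.23 and -0.29 log2 units in nup50c replicates 1, 2 and 3. In Col-0 replicates 1, 2 and 3 it was 0.0055, 0.021 and 0.25. Nup50c replicate 1 thus lay above Col-0 replicates 1 and 2. Summed over the 9 genes, the level was 361.6, 303.3 and 262.9 FPKM in nup50c and 339.1, 319.2 and 383.0 FPKM in Col-0, with *CHS* the largest single contribution in every library.

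**Figure D2:**
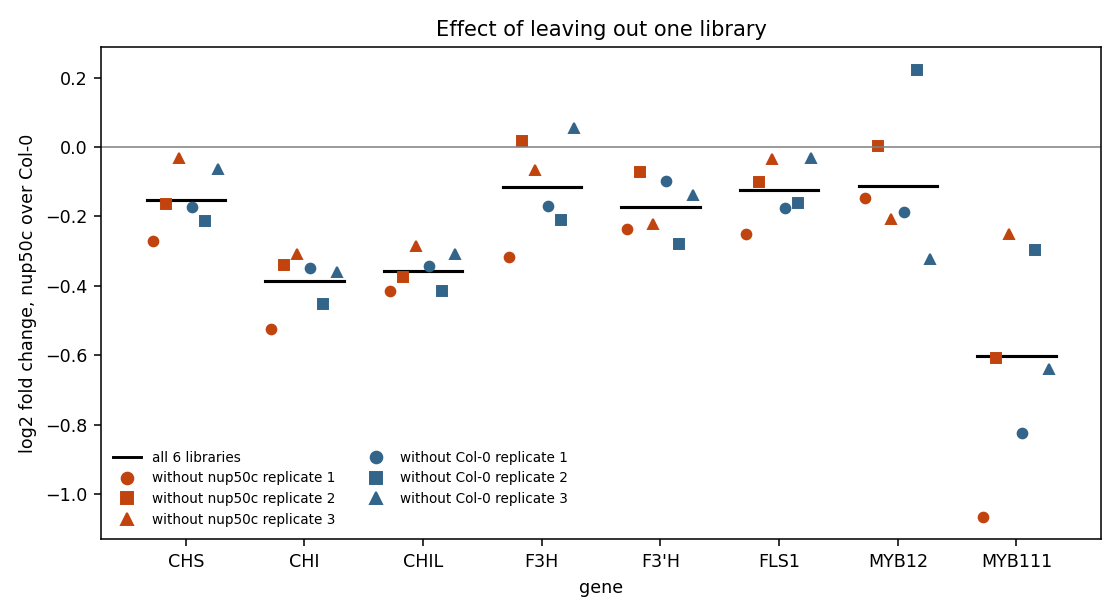
Log2 fold change of nup50c over Col-0 for the 8 tested genes with all 6 libraries (black lines) and with each library left out in turn (symbols, coloured by the group of the library left out). *CHI* and *CHIL* stay between -0.53 and -0.28, while *F3H* reaches 0.05 and *MYB12* 0.22.

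The genes whose libraries most resembled the mean standardised profile of the 8 were AT1G08477 (Pearson r = 0.996 over 6 libraries), *PRS2*, a phosphoribosyl pyrophosphate synthase gene (0.996), *SIAR1*, an amino acid exporter gene also called *UMAMIT18* (0.992), AT5G39990, annotated as the glucuronosyltransferase GlcAT14A (0.991), and AT5G22210 (0.990). Their edgeR adjusted p ran from 0.228 to 0.671. Of 19398 genes ranked, 249 exceeded r = 0.9. Of the 8 genes that form the profile, *CHI* had the highest r with it, 0.948, and *MYB12* the lowest, -0.098. Each of these is in part a correlation of a gene with itself.

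Downstream of the shared dihydroflavonols, 3 of 8 tested late anthocyanin enzyme genes fell in nup50c and 0 rose: *BGLU10*, an anthocyanin glucosyltransferase (log2 fold change -0.86, edgeR adjusted p = 0.0096), *SAT*, which adds sinapoyl groups (-0.92, adjusted p = 0.0216), and *DFR* (-1.06, adjusted p = 0.0253). The median log2 fold change of the 8 late genes was -0.90, beside -0.16 for the 8 early genes and -0.0028 for all genes tested. Over all genes tested, edgeR called 1.17% lower and 1.12% higher. DESeq2 called 4 of the 8 late genes lower and 0 higher, against 2.92% lower and 3.12% higher of all genes tested. At an unadjusted p under 0.05 in edgeR, 7 of the 8 late genes were lower, against 7.98% of all genes tested. These shares also stand beside the lists that follow. This list and those were chosen with earlier results of these data known. *DFR* had 12.4, 7.32 and 9.11 CPM in nup50c and 18.8, 19.2 and 22.1 CPM in Col-0. All nup50c libraries lay below all Col-0 libraries, as for 11.6% of all genes tested. With 1 library left out, the edgeR call of *DFR* was kept only without nup50c replicate 1 (highest adjusted p 0.112, without Col-0 replicate 1) and that of *SAT* only without nup50c replicate 3 (highest adjusted p 0.0832, without Col-0 replicate 2). The *BGLU10* call was lost only without nup50c replicate 2 among the fits that left out 1 library (adjusted p = 0.0535).

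**Figure D3:**
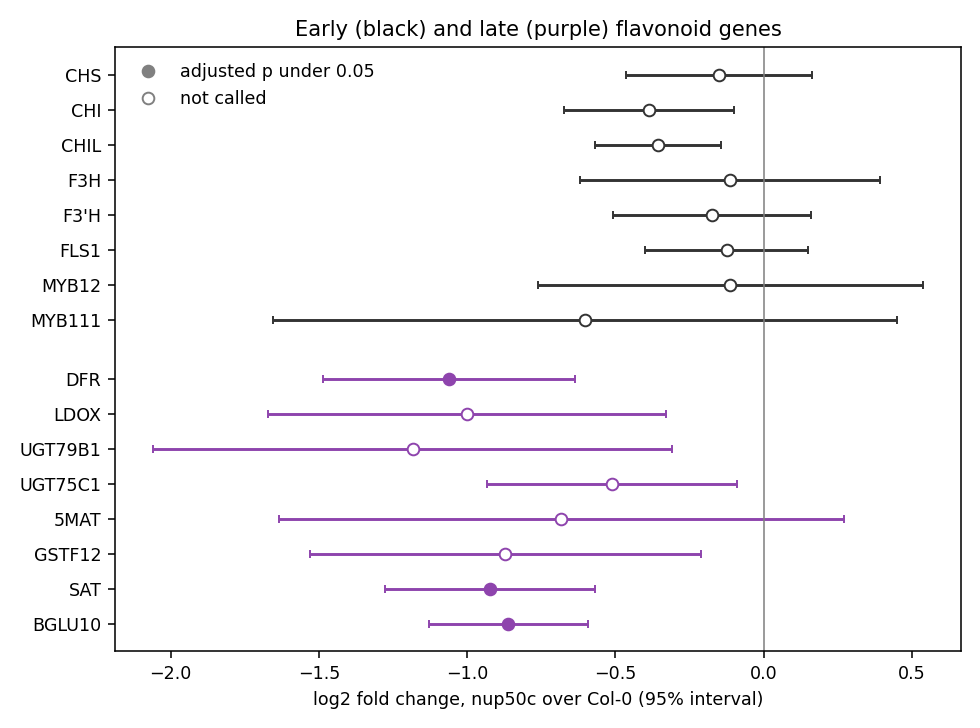
Fitted log2 fold change of nup50c over Col-0 with its 95% interval for the 8 tested early genes (black) and 8 late anthocyanin enzyme genes (purple). Filled points passed an edgeR adjusted p under 0.05. The early genes lie between -0.60 and -0.11 and the late ones between -1.18 and -0.51.

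Ratios between steps, taken within a library, do not depend on library scaling. *DFR* over *FLS1*, which compete for dihydroflavonols, was 0.126, 0.0905 and 0.125 in nup50c and 0.222, 0.222 and 0.214 in Col-0, as FPKM ratios. The groups did not overlap (log2 difference -0.96, exact two-sided permutation p = 0.1, the smallest that 3 against 3 libraries allow). *DFR* over *F3H* had a mean of 0.151 ± 0.00635 in nup50c and 0.296 ± 0.0306 in Col-0 (SD, n = 3 each; exact permutation p = 0.1). It rests on the same *DFR* values and is not separate support. Ratios with *F3H* also carry the uncertainty over antisense reads given above. *CHI* over *CHS* was 0.139, 0.125 and 0.147 in nup50c and 0.175, 0.160 and 0.149 in Col-0, again without overlap but with neighbouring values (exact permutation p = 0.1). The groups overlapped for *FLS1* over *F3H* (log2 difference -0.0046, exact permutation p = 0.9), *F3'H* over *F3H* (-0.047, exact permutation p = 0.8), *CHIL* over *CHI* (0.054, exact permutation p = 0.6) and *F3H* over *CHI* (0.27, exact permutation p = 0.2). These 7 ratios were chosen after the values were seen, and adjusted over the 7 the smallest p was 0.233.

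**Figure D4:**
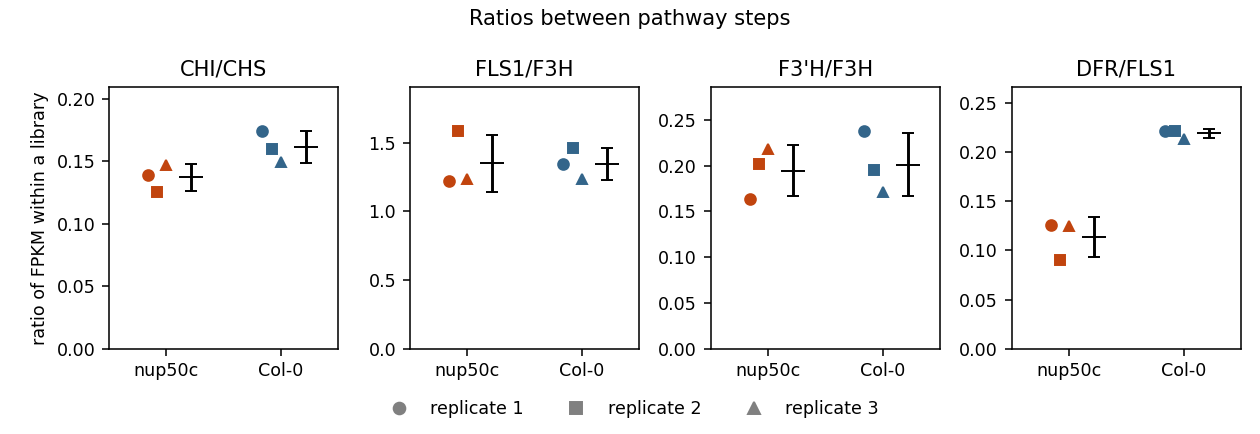
FPKM ratios within each library for 4 pairs of pathway steps (y axes start at 0, symbols as single libraries shaped by replicate number, black bars as mean and SD of 3). *DFR* over *FLS1* lies at 0.0905 to 0.126 in nup50c and at 0.214 to 0.222 in Col-0, while *FLS1* over *F3H* and *F3'H* over *F3H* overlap.

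In the general phenylpropanoid pathway, which supplies coumaroyl-CoA, 0 of 9 tested genes passed edgeR in either direction. At an unadjusted p under 0.05, 3 were lower, against 7.98% of all genes, and DESeq2 called 1 lower, against 2.92%. Their median log2 fold change was -0.18, and -0.09 without Col-0 replicate 3. *PAL2*, a phenylalanine ammonia-lyase, had the smallest p (165.5 ± 11.4 CPM in nup50c and 193.8 ± 6.48 CPM in Col-0, SD, n = 3 each; log2 fold change -0.23, edgeR adjusted p = 0.124), followed by the coumarate ligase *4CL1* (-0.18, adjusted p = 0.165). The branch to lignin and sinapate esters, which uses the same precursor, had 4 falling genes of 10 tested and 0 rising, with a median of -0.20. Over all genes tested 1.17% were called lower and 1.12% higher. The 4 were *F5H*, ferulate hydroxylase (-0.43, edgeR adjusted p = 0.0189), *CCR1*, cinnamoyl-CoA reductase (-0.38, 0.0407), *UGT84A2*, a sinapate glucosyltransferase (-0.45, 0.041), and *CAD5*, cinnamyl alcohol dehydrogenase (-0.40, 0.0446). The *CCR1* and *UGT84A2* calls were lost when any 1 library was left out (adjusted p from 0.0545 to 0.192). *CAD5* kept its call only without Col-0 replicate 3, and *F5H* without Col-0 replicate 3 or nup50c replicate 3. With limma on log2(FPKM + 1), *CCR1* was at -0.18 (adjusted p = 0.347), and *UGT84A2* (adjusted p = 0.053) and *CAD5* (adjusted p = 0.0528) did not pass either.

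Genes that decorate flavonols gave 0 calls among 9 tested by edgeR and 0 by DESeq2, with 2 lower at an unadjusted p under 0.05 and a median of -0.11 (-0.04 without Col-0 replicate 3). Those were *UGT78D2*, the flavonoid 3-O-glucosyltransferase (32.5, 34.7 and 28.3 CPM in nup50c and 38.1, 35.2 and 46.8 CPM in Col-0; log2 fold change -0.33, edgeR adjusted p = 0.226), and *UGT78D1*, the flavonol rhamnosyltransferase (-0.31, adjusted p = 0.246). Of the other flavonol synthase genes, 0 of 4 tested passed edgeR or DESeq2, and 1 was under an unadjusted p of 0.05. This was *FLS4*, with 51, 24 and 22 counts in nup50c and 82, 80 and 103 counts in Col-0 (-1.35, edgeR adjusted p = 0.187). *FLS5* was second by p (0.11, edgeR adjusted p = 0.677), and the median of the list was 0.04, with leave-one-out values from -0.20 (without nup50c replicate 3) to 0.14 (without Col-0 replicate 3).

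A further list joined regulators of light signalling with the MYB repressors *MYB3*, *MYB4*, *MYB7* and *MYB32*. In it *HYH*, a homologue of *HY5*, fell to 281, 391 and 329 counts in nup50c, against 894, 711 and 789 counts in Col-0 (log2 fold change -1.18, edgeR adjusted p = 0.00804). *HYH* was the 1 call among the 8 tested, 0 rose, and the list median was -0.11. That median was -0.02 without nup50c replicate 3, -0.04 without Col-0 replicate 1, -0.19 without nup50c replicate 1 and -0.23 without Col-0 replicate 2. *HYH* remained called by edgeR without each single library (adjusted p up to 0.0442). *UVR8*, the ultraviolet-B receptor gene, was 0.21 log2 units higher by estimate (edgeR adjusted p = 0.114) and was the 1 gene of the list that DESeq2 called higher. *HY5* itself had 20.2, 16.7 and 13.6 CPM in nup50c and 17.9, 16.6 and 19.2 CPM in Col-0 (-0.09, edgeR adjusted p = 0.84), with the groups overlapping. The MYB, bHLH and WD40 regulators of the anthocyanin branch gave 0 calls of 7 tested by edgeR or DESeq2, and 1 was lower at an unadjusted p under 0.05, the repressor *MYBL2* (-0.43, adjusted p = 0.282). *PAP2*, an anthocyanin activator, was second by p, with 33, 0 and 0 counts in nup50c and 60, 60 and 25 counts in Col-0 (edgeR adjusted p = 0.589). The median of that list was -0.43, or -0.10 without nup50c replicate 3 and -0.26 without either nup50c replicate 1 or Col-0 replicate 1. Kelch F-box genes, whose products direct PAL or CHS to degradation, gave 0 calls of 5 tested by edgeR or DESeq2 and 2 at an unadjusted p under 0.05, *KFB1* (-0.30, adjusted p = 0.213) and *KFB20* (-0.21, adjusted p = 0.236), with a median of -0.10.

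Markers of tissues that could shift these levels were read in the same fit. In bulk seedlings, fewer cells of a type and less RNA per cell cannot be told apart. Of 7 seed coat markers, 6, among them *BAN* and *TT2*, were listed at 0 FPKM in every library, and the 1 tested, *AHA10*, had 64, 79 and 60 counts in nup50c and 56, 0 and 55 counts in Col-0 (edgeR adjusted p = 0.761), the list's summed level being 1.84 to 2.10 CPM in nup50c and 0 to 1.59 CPM in Col-0. Root markers gave 0 calls of 7 tested by edgeR or DESeq2 and 0 at an unadjusted p under 0.05, and summed to 48.9 to 51.8 FPKM in nup50c and 46.6 to 54.9 FPKM in Col-0. *PLT1* (-0.66, edgeR adjusted p = 0.41) and *SHR* (-0.20, 0.464) had the smallest p. Shoot epidermis and stomata markers summed to 255.1 to 258.3 FPKM in nup50c and 266.6 to 276.1 FPKM in Col-0, without overlap, and to 405.2 to 422.1 CPM in nup50c and 416.1 to 441.7 CPM in Col-0, with overlap. They gave 0 edgeR calls of 6, 1 by DESeq2 and 3 lower at an unadjusted p under 0.05, led by the guard cell gene *GC1* (-0.29, adjusted p = 0.0822) and *TMM* (-0.27, 0.225). Leaf mesophyll markers gave 0 edgeR calls of 3, 1 higher by DESeq2 and 1 at an unadjusted p under 0.05, *CA1* (0.43, adjusted p = 0.052), followed by *RCA* (-0.11, 0.406), and summed to 11633 to 12765 FPKM in nup50c and 11982 to 12645 FPKM in Col-0. The part of these tissues in the results above was not tested.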

How the data were processed

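The authors deposited whole-number counts per gene and FPKM for 6 libraries. Per the submitters' processing notes the tools were HISAT2 2.0.4 and HTSeq 0.6.1p1, with build TAIR10. The sources used here do not say which program wrote either table, whether counting was stranded or how the deposited FPKM were scaled. The tables hold no coordinates, and gene models and promoters came from RefSeq TAIR10.1, where all 9 genes were found by locus.

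Counts were tested with edgeR 4.0.16 in R 4.3.3: filterByExpr (at least 10 counts, 15 in total), TMM scaling, and the robust quasi-likelihood F test between groups with no covariate, adjusted by Benjamini-Hochberg over 21158 genes and called under 0.05 without a fold minimum. The standard error and the 95% interval of a log2 fold change were derived from the moderated F. The test was checked on simulated data. It called 1.6% of genes changed 1.25-fold, 27.2% at 1.5-fold, 65.2% at 2-fold and 89.2% at 4-fold. A missing call therefore does not show that a gene was unchanged. Alternatives were DESeq2 1.42.0, other scalings and filters, limma 3.58.1 on log2(FPKM + 1) and log2(FPKM + 0.1), a replicate block and leaving out each library. Library totals ran from 33273007 to 39574236 counts, and the lowest count of the 8 tested genes was 30. Ratios were tested with SciPy 1.17.1.

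The 9 genes and the pathway and marker lists were chosen with earlier results of these data known, so no list was tested as a set. Named genes are the 9, NUP50C, called list members, the 2 smallest p of each list, and the 5 most similar profiles. RBCS1A, HY5, BAN, TT2, the overlapping genes and the step ratios were chosen after their values were seen.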

Additional observations from a re-analysis of the deposited data

How the results depend on the processing

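The median log2 fold change of the 8 early genes kept its sign in all 14 alternatives. It was -0.17 to -0.14 with other tools, scalings and filters, and -0.29 to -0.13 with 1 library left out. Each shift was smaller than the spread between replicates (SD 0.18 log2 units). That spread is larger than the median itself, -0.16, so a shift to 0 would also have stayed within it. The number of early genes called lower was 0, and 1 with DESeq2 and 1 over genes with at least 10 counts in every library, each time *CHIL*, and it was 0 to 0 with 1 library left out. None was called higher under any of the 14 (0 to 0). With 1 library left out, *F3H* ran from -0.32 to 0.054, reversing without Col-0 replicate 3 (0.054) and without nup50c replicate 2 (0.019). *MYB12* ran from -0.32 to 0.22, reversing without Col-0 replicate 2 (0.22) and without nup50c replicate 2 (0.0035). The cause was not tested.

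Over all genes, edgeR called 236 higher and 247 lower. DESeq2 called 660 and 617, and the filter of at least 10 counts in every library 394 and 378. With 1 library left out, 43 to 172 genes were higher and 65 to 266 lower, with fewer samples in each fit. The labels do not say that the replicate numbers pair the libraries. Deviations of same-numbered libraries correlated at -0.031, -0.12 and -0.098, and those of different-numbered libraries at -0.023 to 0.12. With 3 libraries per group, these values cannot show whether a pairing existed. With the number as a replicate block, 12 genes were higher and 19 lower, and the median of the early genes was -0.17. With the block, *BGLU10*, *SAT*, *DFR* and *HYH* (edgeR adjusted p from 0.0791 to 0.108) and *F5H*, *CCR1*, *UGT84A2* and *CAD5* (0.116 to 0.177) were not called. *MYB12* and *MYB111*, with 30 to 246 counts, had wider intervals than the 6 enzyme genes, and the part of depth in this was not tested.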
